A study of Mus musculus with 12 samples.

Results

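Immunoglobulin genes, together with 2 genes of antibody-secreting cells, were followed through 12 transcriptomes of mouse myocardium. The members were chosen by symbol: all numbered variable (V) segments of the heavy, kappa and lambda loci, the constant region genes of both chain types, Jchain and Mzb1. This gave 361 of the 33641 gene symbols in the deposited table: 183 heavy V segments, 160 kappa V segments, 3 lambda V segments, 8 heavy constant genes, Igkc, 4 lambda constant genes and the 2 accessory genes. Of these, 137 reached 1 TPM (transcripts in 1000000, a share of the library) in at least 3 of 12 libraries and were tested, and 122 were listed at 0 in every library. The tested members passed this filter through the libraries where they were high, so counts over them do not describe all 361.

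The hearts came from male wild-type C57BL/6 mice aged about 16 weeks, 3 in each of 4 groups. The groups were sham surgery with vehicle, sham surgery with prednisone, myocardial infarction (MI) with vehicle and MI with prednisone. Prednisone, a synthetic glucocorticoid, was injected intraperitoneally at 1 mg/kg once a week for 6 weeks, at lights-on, from 2 weeks after surgery, and the myocardium was taken 24 hours after the last dose. The 4 groups therefore differ in surgery and drug, while strain, sex, age and injection schedule were shared. The labels name 1 genotype and the tissue, and they say neither which region of the heart was taken nor whether blood, fat or other attached tissue was removed.

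An antibody is built from 2 heavy and 2 light chains, and each chain joins a V segment, chosen when the B cell matures, to a constant region that sets the isotype. B cells carry the antibody on their surface through a membrane form of the heavy chain, and plasma cells release large amounts through a secreted form of the same gene. IgM and IgA polymers are held together by the joining chain, the product of Jchain, while Mzb1 encodes a protein of the endoplasmic reticulum that helps fold antibody in plasma cells. In mouse tissue, the recirculating B cells of the blood, the B-1 cells of the body cavities and the lymphoid clusters in surrounding fat are all sources of these transcripts.

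The sequences that the segment results turn on are those of the 4 V segments that led the repertoire of one infarcted heart. Each line gives the exon that encodes the V region (its last 300 bases where it is longer), 5′ to 3′, in GENCODE release 21 for the GRCm38 mouse genome. Capitals mark the bases after the codon of the conserved cysteine, the segment's own contribution to the third complementarity-determining region, which contacts antigen. The genes lie at chr12:114048241-114048812 (Ighv11-2, minus strand), chr12:114788372-114788805 (Ighv1-26, minus strand), chr6:67896172-67896642 (Igkv14-126, plus strand) and chr6:69823355-69823943 (Igkv5-43, minus strand).
Ighv11-2: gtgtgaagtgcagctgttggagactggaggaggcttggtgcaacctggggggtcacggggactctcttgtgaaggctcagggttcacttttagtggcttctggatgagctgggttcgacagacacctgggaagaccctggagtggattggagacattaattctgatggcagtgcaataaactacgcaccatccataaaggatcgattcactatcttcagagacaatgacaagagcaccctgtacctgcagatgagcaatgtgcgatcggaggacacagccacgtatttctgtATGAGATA
Igkv14-126: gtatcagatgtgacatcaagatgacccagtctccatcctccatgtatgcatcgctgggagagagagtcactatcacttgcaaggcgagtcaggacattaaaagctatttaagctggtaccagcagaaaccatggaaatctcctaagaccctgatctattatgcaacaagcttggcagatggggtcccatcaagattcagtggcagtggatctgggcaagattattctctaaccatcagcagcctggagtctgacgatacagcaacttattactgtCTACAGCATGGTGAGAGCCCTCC
Ighv1-26: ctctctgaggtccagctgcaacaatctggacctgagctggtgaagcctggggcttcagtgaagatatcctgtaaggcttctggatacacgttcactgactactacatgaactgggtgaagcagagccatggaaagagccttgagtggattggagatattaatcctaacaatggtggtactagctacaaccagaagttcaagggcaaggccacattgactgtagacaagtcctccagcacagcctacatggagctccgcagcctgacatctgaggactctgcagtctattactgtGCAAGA
Igkv5-43: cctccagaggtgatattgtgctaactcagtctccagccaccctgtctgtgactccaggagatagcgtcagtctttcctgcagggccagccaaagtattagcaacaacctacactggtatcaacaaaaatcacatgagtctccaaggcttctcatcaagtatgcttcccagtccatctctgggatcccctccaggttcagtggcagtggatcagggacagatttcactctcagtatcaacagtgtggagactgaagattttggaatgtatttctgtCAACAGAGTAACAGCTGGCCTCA

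The other pair shown is the end of the coding sequence of Ighm, the mu constant gene at chr12:113418558-113422730 on the minus strand, in its secreted and membrane transcripts. Lower case marks the bases that both transcripts share, and capitals mark those that are particular to each form, up to the stop codon. Reads from the lower-case part cannot tell the forms apart.
Ighm secreted: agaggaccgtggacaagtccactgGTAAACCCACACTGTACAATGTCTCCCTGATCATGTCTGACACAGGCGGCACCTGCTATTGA
Ighm membrane: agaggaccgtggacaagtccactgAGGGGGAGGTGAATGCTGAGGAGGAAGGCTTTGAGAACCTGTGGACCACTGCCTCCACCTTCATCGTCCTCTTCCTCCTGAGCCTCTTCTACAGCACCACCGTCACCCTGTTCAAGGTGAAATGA

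Libraries were compared as deposited. TPM carries no read depth, so no counting error can be attached to a value. Between 11690 and 14307 genes reached 1 TPM. Cardiomyocyte markers summed to between 24169 and 40839 TPM in the 12 libraries, which fits the labelled tissue. Several libraries also carried transcripts of other tissues. Scgb1a1, a secretory protein of the airway, was at 5514 TPM in MI vehicle 3, 9321 TPM in MI prednisone 2 and 1312 TPM in MI prednisone 3. It was at 338.9, 182.4 and 102.8 TPM in MI vehicle 1, sham vehicle 1 and sham vehicle 2, and at 5.66 TPM or less in the other 6. Rag1 and Dntt, which rearrange and edit antigen receptor genes in immature lymphocytes, were at 88.0 and 135.6 TPM in MI vehicle 3 and at 4.83 and 6.22 TPM in sham vehicle 2. They were at 1.16 and 1.89 TPM in sham vehicle 1 and at 0.0528 TPM or less elsewhere. In bulk tissue, fewer cells of a type and less RNA per cell cannot be told apart.

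The summed level of all members varied widely between mice of a group. In the sham vehicle hearts it was 835.6, 1969.9 and 28.8 TPM in replicates 1 to 3. In the sham prednisone hearts it was 460.9, 92.8 and 260.5 TPM. The MI vehicle hearts held the highest values and also one of the lowest, at 4905 TPM, 156.3 TPM and 12800.2 TPM. The MI prednisone hearts had 1135.7, 1135.9 and 259.5 TPM. Every pair of groups compared overlapped, and the members took between 0.00288% and 1.28% of a library.

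On the log2 scale, after addition of 1 TPM, the mean of the summed level was 2.55 higher in MI than in sham hearts under vehicle (pooled SD 3.27, n = 3 in each group). It was 1.63 higher in MI than in sham hearts under prednisone (pooled SD 1.20). Prednisone hearts were 1.62 lower than vehicle hearts after MI (difference -1.62, pooled SD 2.51) and 0.71 lower after sham surgery (difference -0.71, pooled SD 2.40). Apart from the difference between MI and sham under prednisone, each difference was smaller than 1 SD between mice. The comparisons share groups of samples, so they are not independent of each other. Without MI vehicle 3 the difference after MI between prednisone and vehicle was -0.34, and without sham vehicle 2 the difference after sham surgery was 0.51.

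Igkc, the constant gene of the kappa light chain and the most abundant member, lies at chr6:70726435-70726966 on the plus strand. It was at 249.3, 567.1 and 5.12 TPM in the sham vehicle hearts and at 125.2, 21.6 and 81.9 TPM in the sham prednisone hearts. It was at 1353, 40.6 and 3701 TPM in the MI vehicle hearts and at 501.1, 493.3 and 114.0 TPM in the MI prednisone hearts. The library with the most Igkc and one of those with the least therefore belonged to the same group, and the whole span was 723.6-fold. The log2 change between MI and sham was 2.64 under vehicle (SE 1.79, limma adjusted p = 0.253) and 2.31 under prednisone (SE 1.79, limma adjusted p = 0.422). The first was 0.65 without sham vehicle 3 and 4.55 without MI vehicle 2. Between prednisone and vehicle in MI it was -0.96 (SE 1.79, limma adjusted p = 0.69), and without MI vehicle 3 it was 0.36.

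Ighm, which encodes the heavy chain of IgM, followed nearly the same order of libraries. Its levels were 132.3, 252.6 and 7.08 TPM in sham vehicle, 72.1, 14.2 and 43.3 TPM in sham prednisone, 740.1, 24.1 and 1619.8 TPM in MI vehicle and 174.2, 184.6 and 36.9 TPM in MI prednisone. No difference passed the test: the log2 change was 2.26 between MI and sham under vehicle (SE 1.55, limma adjusted p = 0.257) and -1.54 between prednisone and vehicle in MI (SE 1.55, limma adjusted p = 0.445). The first ran from 0.76 (without sham vehicle 3) to 4.08 (without MI vehicle 2) as each library was left out, and the second from -3.35 (without MI vehicle 2) to -0.35 (without MI vehicle 3).

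Jchain, at chr5:88519809-88527891 on the minus strand, was at 15.6, 34.4 and 0.204 TPM in sham vehicle hearts and 8.66, 0.64 and 3.79 TPM in those given prednisone after sham surgery. It was at 94.4, 1.79 and 202.9 TPM in MI vehicle and at 23.5, 24.3 and 3.41 TPM in MI prednisone. The ratio of Jchain to Igkc stayed between 2.96% and 6.98% in all 12 libraries, while Igkc ranged over 723.6-fold and Jchain over 995.6-fold. The level of Mzb1 was 2.02, 4.33 and 0.815 TPM in sham vehicle, 1.97, 1.26 and 1.37 TPM in sham prednisone, 4.94, 0.988 and 26.4 TPM in MI vehicle and 4.39, 4.19 and 2.72 TPM in MI prednisone. Mzb1 was higher in all 3 MI prednisone hearts than in all 3 sham prednisone hearts, yet its log2 change of 0.90 did not pass (SE 0.73, limma adjusted p = 0.443), though it did with only these 2 groups fitted (limma adjusted p = 0.0156). In that comparison 12.9% of all tested genes had MI levels that lay wholly above the sham levels.

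**Figure D1:**
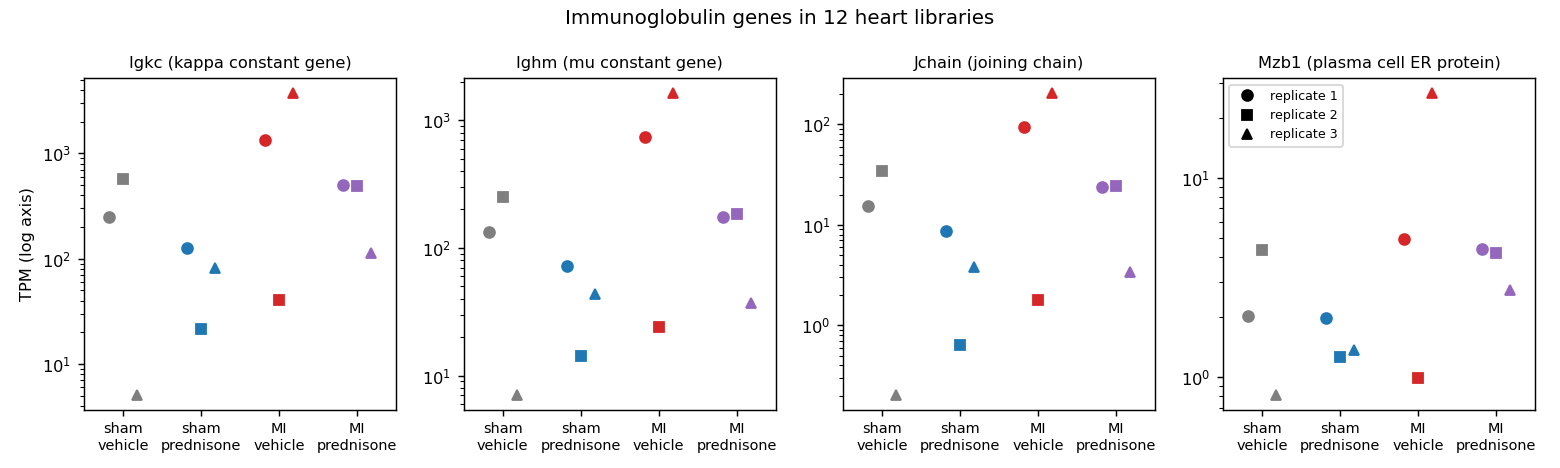
Level of Igkc, Ighm, Jchain and Mzb1 in each library (TPM, log axis), by group, with 1 point per mouse and a marker shape per replicate number. MI vehicle 3 holds the highest value of all 4 genes, at 3701 TPM for Igkc, and MI vehicle 2 lies below both other hearts of its group, at 40.6 TPM.

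Across the 13158 genes tested with limma, few members passed an adjusted p of 0.05. Between MI and sham under vehicle, 1 of 137 members was called, Ighv3-5, which was higher, against 16.0% of all genes tested and 15.1% called higher. Between MI and sham under prednisone, no member was called against 16.8% of all genes (1 member had an unadjusted p under 0.05). Between prednisone and vehicle in MI, 9 of 137 members were called, all lower, against 37.4% of all genes and 34.9% called lower. No member was called between prednisone and vehicle in sham hearts, where 0.114% of all genes were (no member had an unadjusted p under 0.05). The difference between the prednisone effects in MI and sham hearts was called for 1 member, again Ighv3-5, against 21.3% of all genes.

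The members' shares of calls lay below the background in each comparison except the one of prednisone in sham hearts, where both were near 0. Their spread was wide: the median standard error of a log2 change was 1.03 for the members and 0.19 for all genes tested. The median change of the tested members was 1.40 between MI and sham under vehicle (0.39 over all genes) and 0.31 under prednisone (-0.06 over all genes). Between prednisone and vehicle it was -1.69 in MI (-0.41 over all genes) and -0.68 in sham hearts (0.07 over all genes). Members share libraries and cells, and 118 of the 137 had their highest level in MI vehicle 3. Without that library the medians were 0.34 between MI and sham under vehicle (0.19 over all genes) and -0.67 between prednisone and vehicle in MI (-0.22 over all genes). Without MI vehicle 2 instead, the same medians were 2.37 (0.45 over all genes) and -2.78 (-0.47 over all genes). None of the constant region genes, Jchain or Mzb1 was called in any of the 5 comparisons with all libraries. Igha came nearest, at a log2 change of 2.56 between MI and sham under vehicle (SE 0.80, limma adjusted p = 0.051), and it was called without sham vehicle 2 (limma adjusted p = 0.0416). Without MI vehicle 2, Igha, Iglc1 and Mzb1 were called between MI and sham under vehicle (limma adjusted p = 0.04, 0.0452 and 0.047), and Igha, Ighg3 and Iglc1 between prednisone and vehicle in MI (limma adjusted p = 0.0319, 0.0424 and 0.0273). In that fit 39.4% and 62.8% of members were called in these comparisons, against 12.1% and 36.5% of all genes.

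Ighv3-5, a heavy V segment at chr12:114262652-114263087 on the minus strand, was a low-level gene. It was at 2.53, 3.23 and 7.41 TPM in the MI vehicle hearts. In sham vehicle it was at 1.84 TPM in replicate 2 and listed at 0 in the other two. Among sham prednisone hearts it was at 0.398 TPM in replicate 3 and listed at 0 in the other two, and it was listed at 0 in all 3 MI prednisone hearts. The MI vehicle values lay above those of every other library, and this was the 1 member of 137 whose MI levels lay wholly above the sham levels under vehicle, against 40.8% of all genes tested. Outside MI vehicle the gene reached 1 TPM only in sham vehicle 2, so it passed the filter through the group where it was high. Its calls that involve that group are not independent of the filter. The log2 change was 1.82 between MI and sham under vehicle (SE 0.41, limma adjusted p = 0.0207) and -2.32 between prednisone and vehicle in MI (SE 0.41, limma adjusted p = 0.00246). The first call was lost without sham vehicle 1, sham vehicle 3 or MI vehicle 3 (limma adjusted p = 0.0899, 0.0942 and 0.0557) and with only these 2 groups fitted (0.135), and the second was kept in each fit that left out 1 library. Of its 31-base stretches, 90.0% occur in no other V segment or gene outside the members for one annotated form and 86.4% for the other.

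The other 8 V segments called lower with prednisone in MI were Ighv1-26, Ighv1-61, Ighv2-2, Igkv6-17, Igkv13-84, Igkv14-100, Igkv2-109 and Igkv9-124. Their log2 changes ran from -4.28 (Ighv1-26, SE 1.45, limma adjusted p = 0.0386) to -1.68 (Igkv9-124, SE 0.60, limma adjusted p = 0.0466). Of the 6 fits that left out 1 library, 5 lost the call of Ighv1-26 and of Igkv2-109. Those of Ighv2-2 and Igkv9-124 were lost in 4, and those of Igkv6-17, Igkv13-84 and Igkv14-100 in 3. Only the call of Ighv1-61 was kept in each. Igkv6-17 had 4.49, 4.59 and 92.5 TPM in MI vehicle, was listed at 0 in 2 MI prednisone hearts and had 0.498 TPM in the third. Ighv1-26 was at 208.0, 0.979 and 82.5 TPM in MI vehicle and 0.429, 1.56 and 0.287 TPM in MI prednisone, so that its groups overlapped. Ighv1-61, Igkv6-17 and Igkv14-100 reached no more than 0.872 TPM in any prednisone library. They passed the filter of 1 TPM through vehicle hearts alone, so their calls are not independent of that filter. Over all members, 10 of 137 lay wholly lower in MI prednisone than in MI vehicle, against 42.6% of all genes. Without MI vehicle 3, 2 members were called here, against 31.6% of all genes. Without MI vehicle 2, the heart of that group with the least immunoglobulin RNA, 86 of 137 (62.8%) were, against 36.5% of all genes.

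Most heavy chain RNA was of the mu class. Ighm made up between 54.5% and 94.4% of the summed heavy constant TPM, with a median of 79.4% over the 12 libraries. The 4 IgG genes together took 9.12%, 23.5% and 37.7% with vehicle after sham surgery and 8.77%, 19.3% and 10.3% with prednisone. They took 2.56%, 13.2% and 23.0% in MI vehicle and 12.5%, 4.91% and 13.7% in MI prednisone. The groups overlapped for the IgG share, and the lowest and one of the highest were both MI vehicle hearts.

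Ighg2c, the gene that C57BL mice carry for the IgG2c subclass, was the main IgG gene in most libraries, and its level did not follow Igkc at the low end. It was at 4.81 TPM in sham vehicle 3, where Igkc was at 5.12 TPM, and at 4.32 TPM in MI vehicle 1, where Igkc was at 1353 TPM. Outside MI vehicle 3 (260.6 TPM), sham vehicle 2 (40.2 TPM), MI prednisone 1 (15.1 TPM) and sham vehicle 1 (8.75 TPM), it stayed between 3.51 and 6.17 TPM. The high IgG share of sham vehicle 3 was almost wholly Ighg2c, at 37.0% of heavy constant TPM.

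The other IgG genes did range with the libraries. Ighg2b was at 163.2 TPM in MI vehicle 3, 27.8 TPM in sham vehicle 2 and 10.1 TPM in MI prednisone 1, against 0.0294 TPM in sham prednisone 1. Ighg1 was at 41.8 TPM in MI vehicle 3 and 8.69 TPM in sham vehicle 2, and at 1.05 TPM or less in the other 10 libraries. Switched IgG transcripts were thus most abundant in the 2 libraries that also held the most Rag1 and Dntt, whose part in these levels was not tested.

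Igha, the constant gene of IgA, the antibody of mucosal surfaces, reached 19.4% of heavy constant TPM in MI vehicle 2 (7.82 TPM) and lay between 1.55% and 9.13% in the other libraries. Ighd, the IgD gene that mature naive B cells express beside IgM, took between 0.348% (MI vehicle 1) and 7.59% (MI vehicle 2). Ighe, the IgE gene, never exceeded 0.433 TPM and was listed at 0 in 8 libraries. Iglc4 was listed at 0 in all 12.

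Lambda light chains took between 7.12% and 23.7% of the light constant TPM, with a median of 10.8%. Iglc1 was the most abundant lambda constant gene in MI vehicle 3, at 341.5 TPM, and Iglv1, a V segment of that locus, was at 381.9 TPM there. The highest lambda share belonged to sham prednisone 2, where the lambda constant genes summed to only 6.73 TPM. The group ranges of the lambda share overlapped.

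The secreted form of Ighm accounted for most of its variation. The membrane transcript ranged from 4.13 to 149.5 TPM and, with MI vehicle 3 left out, only up to 23.7 TPM, a 5.75-fold span. The secreted transcript ranged from 2.95 to 1470.4 TPM, and still spanned 242.6-fold without MI vehicle 3. Of Ighm TPM it made up 84.7%, 93.0% and 41.7% with sham surgery and vehicle, and 81.1%, 62.6% and 78.2% with sham surgery and prednisone. After MI these shares were 96.8%, 34.5% and 90.8% with vehicle and 90.2%, 90.2% and 78.3% with prednisone. The libraries with the least immunoglobulin RNA in the vehicle groups, sham vehicle 3 and MI vehicle 2, were the ones in which the membrane form prevailed. The division of reads between the forms rests on the bases that differ near the 3′ end and on the authors' quantification. Only the coding part of those bases is shown above.

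**Figure D2:**
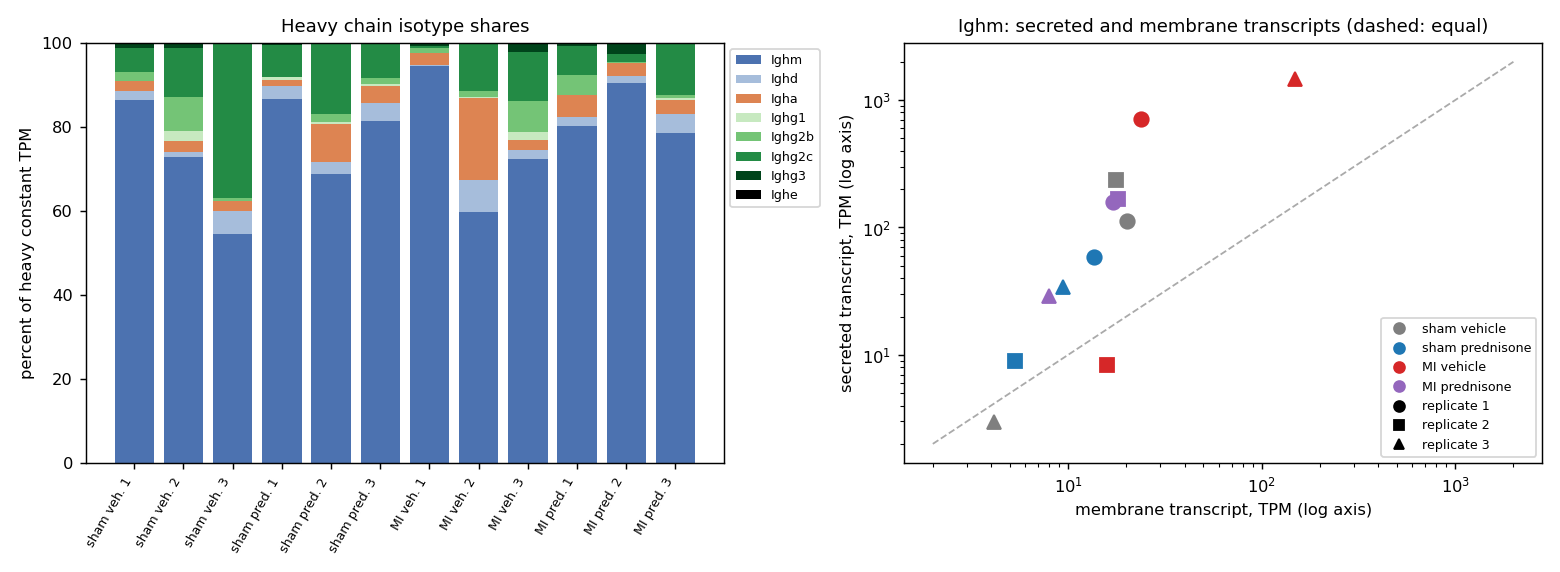
Left, share of each heavy constant gene in the summed heavy constant TPM of each library (percent, stacked to 100). Right, secreted against membrane Ighm transcript in each library (TPM, log axes), coloured by group, where 10 libraries lie above the dashed line of equality and sham vehicle 3 and MI vehicle 2 lie below it.

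Surface markers of B cells varied less than Igkc. Cd79a, a signalling subunit of the B cell receptor, was at 4.61, 4.73 and 0.426 TPM in sham vehicle, 4.17, 1.12 and 2.88 TPM in sham prednisone, 5.17, 3.21 and 51.6 TPM in MI vehicle and 5.59, 5.39 and 2.74 TPM in MI prednisone. The ratio of Igkc to Cd79a was lowest in sham vehicle 3, came to 12.7 in MI vehicle 2 and was highest in MI vehicle 1, at 261.7. MI vehicle 1 had 1353 TPM of Igkc beside 5.17 TPM of Cd79a, whereas sham vehicle 1 had 249.3 TPM beside 4.61 TPM. MI vehicle 3 stood apart in having high levels of both.

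Genes outside the rule were described from lists of other B lineage genes. Over all genes tested, 15.1% were called higher in MI than sham hearts under vehicle and 34.9% lower with prednisone in MI. The counts of each list below stand against these shares. After median-ratio rescaling the shares were 3.26% and 13.8%, while the lists were counted under the main scaling only. Of 14 tested plasma cell genes (16 listed), 5 were higher in MI under vehicle: Sdc1 (a surface proteoglycan of plasma cells, log2 change 1.47), Txndc5 (1.14), Cd38 (0.83), Fkbp11 (0.70) and Xbp1 (0.66, the transcription factor of the secretory programme). The median change over the 14 tested plasma cell genes was 0.85, against 0.39 over all genes. Txndc5, Cd38 and Tnfrsf13b were lower with prednisone in MI, at -0.99, -0.67 and -1.36. These genes are also expressed outside plasma cells. Sdc1 was at 8.27 TPM in MI vehicle 2, above the 6.34 TPM of MI vehicle 1, although Igkc was at 40.6 TPM in the former and 1353 TPM in the latter. Irf4, Tnfrsf17, Derl3, Pou2af1, Eaf2 and Xbp1 were instead higher in MI vehicle 1, as Igkc was, with Derl3 at 1.98 against 0.384 TPM. The rest of the plasma cell list was higher in MI vehicle 2, as Sdc1 was. Tnfrsf17, a survival receptor of plasma cells, and Irf4 and Prdm1, transcription factors of their differentiation, were low, at no more than 1.78, 3.51 and 1.11 TPM in any library.

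Of 17 B cell genes, 1 was higher in MI under vehicle and lower with prednisone in MI, the transcription factor gene Ebf1 (log2 changes 0.69 and -1.08), which stromal and fat cells also express. The remaining 16, Ms4a1 and Cd79a among them, did not pass. Of 8 tested genes of B cell recruitment and survival (14 listed), Ccl21a, a chemokine of lymphatic vessels, and Tnfsf13b, the survival factor BAFF, were higher in MI under vehicle (1.95 and 0.74). Ccl21a and Cxcl12 were lower with prednisone in MI (-1.11 and -0.71). Of 9 genes of antibody receptors and transport, Fcer1g, Fcgr3, Fcgr2b and Fcgr4 were higher in MI under vehicle, by 1.22, 1.00, 0.98 and 0.88, and Fcgr2b and Fcgr1 were lower with prednisone in MI, at -0.68 and -0.73. In the same contrasts 9 of 10 macrophage genes were higher (15.1% of all genes) and 8 were lower (34.9% of all genes), and no T cell gene (12 tested) was called in either. Macrophages carry these receptors too, and their part in the result was not tested.

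V segment usage differed from heart to heart. Usage is given as the share of each segment in the summed V TPM of its chain, and its evenness as an effective number, the inverse of the sum of squared shares. MI vehicle 1 was the most concentrated of the libraries rich in immunoglobulin RNA. Igkv5-43 and Igkv14-126 took 25.3% and 24.0% of its kappa V TPM, 49.3% together, and Ighv1-26 and Ighv11-2 took 24.5% and 14.9% of its heavy V TPM. Its effective numbers were 7.66 kappa and 10.3 heavy segments. Those of MI vehicle 3 were 31.8 and 24.7, and those of sham vehicle 2 were 30.5 and 31.5, with no segment above 13.2% in either.

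Igkv14-126 and Ighv11-2, whose sequences are printed above, are known as the light and heavy segments of a B-1a cell antibody that binds phosphatidylcholine. In MI vehicle 1 they were at 373.7 and 126.9 TPM. They led in MI prednisone 2 as well, at 22.5% of kappa V (54.5 TPM) and 13.3% of heavy V (12.9 TPM). Over all 12 libraries the median share was 4.56% for Igkv14-126 and 1.96% for Ighv11-2. Sham prednisone 2 also had both among its leading 2 segments, at 8.16% and 9.49%, but its V TPM summed to only 41.9, so that these are shares of a few TPM.

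Igkv5-43 and Ighv1-26, the other leading segments of MI vehicle 1, were next highest by share in sham vehicle 3, at 13.8% and 11.02%, but of only 5.24 TPM of kappa V and 2.52 TPM of heavy V. Igkv5-43 was at 394.5 TPM in MI vehicle 1 and at 55.6 TPM in MI vehicle 3, and at 13.0 TPM or less in the other 10 libraries. Its median share was 1.91%. Ighv1-26 was at 208.0 TPM in MI vehicle 1 and had a median share of 3.71%. It was also the leading heavy segment of sham vehicle 1, at 6.83%. Reads of V segments can be divided between near-identical segments. Of the 31-base stretches of Igkv14-126, 94.2% occur in no other V segment and in no gene outside the members. This share was 49.4% for Ighv11-2, 33.2% for Igkv5-43 and 25.2% for Ighv1-26, and the median over 346 V segments was 61.3%. V TPM also counts somatically mutated segments only as far as their reads matched the reference.

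**Figure D3:**
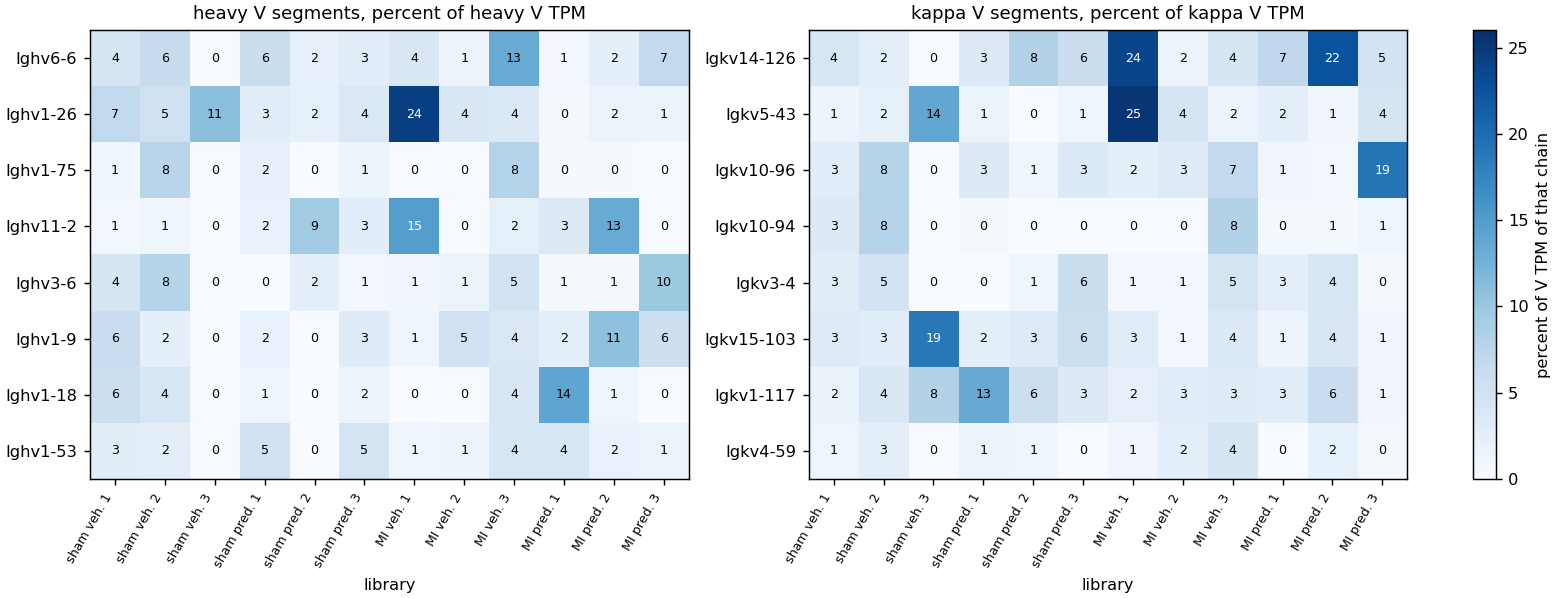
Share of the 8 heavy and 8 kappa V segments with the highest mean TPM in the V TPM of their chain (percent, rounded), by library. MI vehicle 1 is led by Igkv5-43, Igkv14-126 and Ighv1-26, MI prednisone 2 by Igkv14-126, and sham vehicle 2 and MI vehicle 3 share a more even pattern.

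Sham vehicle 2 and MI vehicle 3, from mice of different groups, had the most similar repertoires of all. Over 66 kappa V segments tested, the Pearson correlation of their shares was 0.93 (Spearman 0.91), against a median of 0.24 over the 66 pairs of libraries and a next highest of 0.59. Over 55 heavy V segments it was 0.82 (Spearman 0.85), against a median of 0.19 and a next highest of 0.52. The part of usage that the libraries had in common was 85.8% for kappa and 81.2% for heavy segments, against medians of 46.4% and 43.5%. These are descriptions across segments, which are not independent, and libraries with little V RNA have noisier shares.

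MI vehicle 1, the library with the second most immunoglobulin RNA, reached 0.22 (kappa) and 0.21 (heavy) against MI vehicle 3. Sham vehicle 1 reached 0.37 (kappa) and 0.48 (heavy) against MI vehicle 3. Against sham vehicle 2 it reached 0.36 (kappa) and 0.52 (heavy), the next highest heavy value named above. Igkv10-94 took 8.19% of kappa V in MI vehicle 3 and 7.72% in sham vehicle 2, with a median of 0.436% over the 12 libraries. Ighv1-75 took 7.95% and 7.57% of heavy V, with a median of 0.232%. Isotype shares were close as well, at 23.0% and 23.5% IgG. Over the 137 tested members, the level in sham vehicle 2 was 16.1% of that in MI vehicle 3 at the median (quartiles 11.8% and 22.0%). The sum of the T cell genes was 5.41% of that in MI vehicle 3 (95.9 against 1773 TPM), and the sum of the immature T cell and thymus genes 4.94% (21.5 against 434.9 TPM). What the 2 libraries share was not tested, and the main values follow with both left out. With both left out, 2 members were called between MI and sham under vehicle (9.15% of all genes), 4 between prednisone and vehicle in MI (30.9% of all genes), and 3 for the difference between the prednisone effects (24.3% of all genes). The summed level then differed by 2.48 between MI and sham under vehicle, by -0.34 between prednisone and vehicle in MI and by 0.51 in sham hearts.

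**Figure D4:**
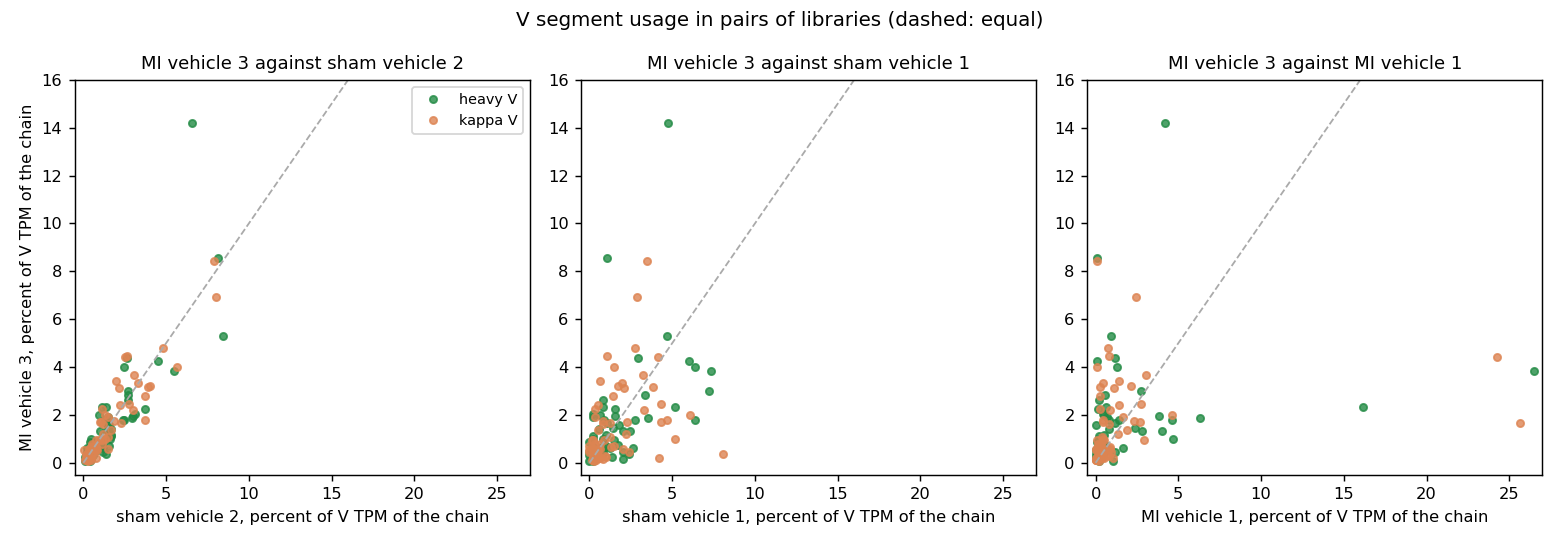
Share of each tested heavy and kappa V segment in the V TPM of its chain (percent) in MI vehicle 3, against sham vehicle 2, sham vehicle 1 and MI vehicle 1, with 1 point per segment. The points lie along the dashed line of equality for sham vehicle 2 (r = 0.93 for kappa and 0.82 for heavy segments). They scatter more for sham vehicle 1 (r = 0.37 and 0.48) and MI vehicle 1 (r = 0.22 and 0.21).

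The balance between parts of the antibody transcripts set the MI prednisone hearts apart. The ratio of summed kappa V TPM to Igkc was 0.420, 0.492 and 0.502 in MI prednisone and lay between 0.865 and 1.15 in the other 9 libraries. The ratio of heavy V to heavy constant TPM was 0.396, 0.476 and 0.439 in MI prednisone, and between 0.616 and 1.08 in the other libraries except sham vehicle 3, where it was 0.194 with 2.52 TPM of heavy V in all. The ratio of heavy to light constant TPM was 0.382, 0.378 and 0.382 in MI prednisone and between 0.530 and 2.05 elsewhere.

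V regions lie at the 5′ end of these transcripts and constant regions at the 3′ end, and the heavy transcripts are longer than the light ones. A measure over other genes moved in the same 3 libraries. It was the Spearman correlation between transcript length and a library's deviation from the mean of the sham vehicle libraries. It covered the 90.3% of tested non-member genes with a known length. This correlation was between -0.41 and -0.29 in MI prednisone. It was between -0.12 and 0.22 in the other 9, which include the sham vehicle libraries themselves. The part of this measure in the lower V ratios, and in the V segments called lower with prednisone in MI, was not tested. All 9 members called lower with prednisone in MI were V segments, as were 124 of the 137 tested members (90.5%).

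**Figure D5:**
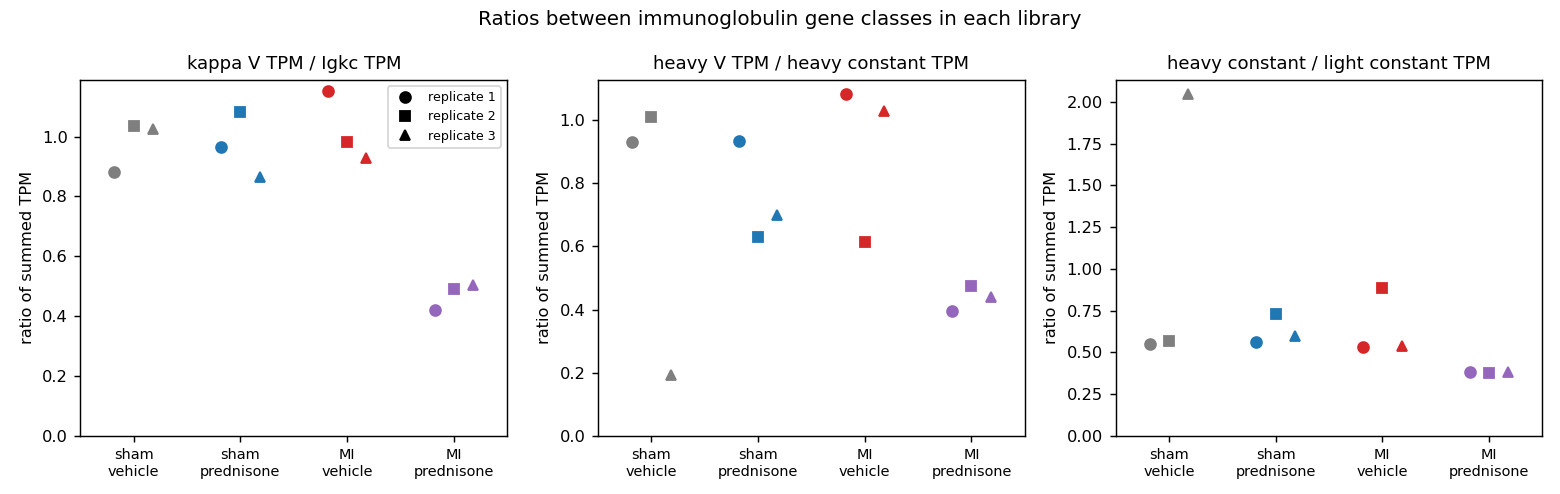
Ratios of summed TPM between kappa V and Igkc, heavy V and heavy constant genes, and heavy and light constant genes, by group, with 1 point per mouse. MI prednisone hearts lie between 0.420 and 0.502 for kappa, below every other library (0.865 to 1.15).

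Other tissue markers moved with the immunoglobulin genes. Adipoq, the adipocyte hormone adiponectin, was at 35.1, 49.2 and 2.09 TPM in sham vehicle, 14.6, 13.5 and 16.6 TPM in sham prednisone, 75.7, 1.68 and 177.0 TPM in MI vehicle and 28.1, 88.4 and 26.8 TPM in MI prednisone. Like Igkc, it was highest in MI vehicle 3, and each was lowest of its group in sham vehicle 3 and MI vehicle 2. Over 12 libraries the log2 sum of 8 adipocyte genes and log2 Igkc had a Pearson correlation of 0.87 (permutation p = 0.00018) and a Spearman correlation of 0.91 (permutation p = 0.00018), adjusted over 14 lists to 0.00252 and 0.00196. Pearson's r was 0.93 without the 2 libraries farthest from the median, MI vehicle 3 and MI prednisone 2. Within groups, after removal of each group's mean, it was 0.83 (exact permutation p = 0.00463, adjusted p = 0.0324).

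Over the 12 libraries Pearson's r passed after adjustment for all 14 lists (largest permutation adjusted p 0.0366), with a negative sign for the cardiomyocyte list (r = -0.60). Without the 2 libraries farthest from each list's median, r was -0.375 for that list. For the others it then ran from 0.249 (immature T cell and thymus) to 0.93 (adipocyte). Spearman's rho did not pass for the plasma cell, macrophage, cardiomyocyte and atrium lists. Nor did it pass for the lists of mesothelium and epicardium and of immature T cell and thymus (permutation adjusted p from 0.0579, macrophage, to 0.154, atrium). Within groups, besides the adipocyte list, that of mesothelium and epicardium passed (r = 0.77, exact permutation p = 0.00154, adjusted p = 0.0216). The B cell list correlated with Igkc at 0.82 over all libraries and 0.80 within groups (exact permutation p = 0.0177, adjusted p = 0.0729). The neutrophil and mast cell, red blood cell and atrium lists had within-group correlations of 0.82, 0.78 and 0.76 (exact permutation adjusted p = 0.0729, 0.0926 and 0.0926). For the plasma cell list the values were 0.70 and 0.60 (exact permutation p = 0.168, adjusted p = 0.221), and for the airway and lung list 0.75 and 0.70 (exact permutation p = 0.0463, adjusted p = 0.0926). No adipocyte gene was called in any comparison (8 tested). Summed over its 8 genes, the adipocyte list ran from 577.1 to 1145.5 TPM in sham vehicle, 687.8 to 807.0 TPM in sham prednisone, 641.4 to 3153 TPM in MI vehicle and 1006.7 to 2511 TPM in MI prednisone. The part of attached fat, and of the other tissues whose markers were present, in the immunoglobulin levels was not tested.

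The 10 genes outside the rule whose log2 levels followed the summed immunoglobulin level most closely over the 12 libraries were Ndn, Acp5, Arxes2, Glb1l2, Aoc3, Serpina3c, Osr1, Vit, Podn and Car5b. Their Pearson correlations ran from 0.98 for Ndn to 0.90 for Car5b, as a description over 12 libraries that differ in their content of other tissues. Ndn spanned only 1.39 TPM in sham vehicle 3 to 3.28 TPM in MI vehicle 3, and Acp5, a phosphatase of osteoclasts and macrophages, spanned 0.661 TPM to 53.0 TPM in the same libraries. No plasma cell or B cell gene was among the 10.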

How the data were processed

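The authors deposited 1 table of TPM values for 105129 transcript rows in 12 libraries, with symbols. Per the submitters' processing notes, Trimmomatic, HISAT2, kallisto and the mm10 build were used; their roles are not given in the sources used here, and read depth is unknown. Libraries were stranded and prepared from mRNA, per the labels' protocols. Transcript rows were summed per symbol, with pandas 2.3.3. Groups and replicate numbers came from the titles. Genes at 1 TPM or more in at least 3 libraries were tested with limma 3.58.1 (R 4.3.3) on log2(TPM + 1), in 1 fit over all 12 libraries with a variance trend, with Benjamini-Hochberg adjustment over 13158 genes and a threshold of 0.05. Fold changes on this scale understate those of low genes. P-values measure the spread between these mice. The fit was tested on simulated data with independent noise in each gene. Such data hold no spread that genes share within a library, as the members do here, so that test does not cover it.

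The members and the gene lists were chosen with earlier results of these data known, and the immature T cell and thymus list was added after its values were seen. Genes named are all constant genes, Jchain and Mzb1, the up to 8 heavy, 8 kappa and 3 lambda V segments with the highest mean TPM, every member called, the 10 genes most correlated with the summed level and genes of the B lineage lists; others, such as the leading tissue markers, were named after their values were seen. Summed levels, shares and ratios were described without a test. Transcript identifiers of 99.3% of member rows matched GENCODE release 21, which gave sequences, coordinates and lengths. The 31-base uniqueness of V segments was counted against other V segments and all transcripts of genes outside the members. The exact permutation test within groups used 1296 arrangements, and other permutation tests 100000. Alternatives covered scaling, filter, pseudocount, trend, replicate block, the groups fitted, the rows summed and each replicate left out.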

Additional observations from a re-analysis of the deposited data

Results flagged for a closer look

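Ighv3-5 was the 1 member for which the effect of prednisone differed between MI and sham hearts. The log2 difference of the effects was -1.98 (SE 0.59, limma adjusted p = 0.0364). Prednisone libraries were lower than vehicle libraries in MI, where the gene was listed at 0 in 3 of 3 hearts against 2.53 to 7.41 TPM. In sham hearts 1 of 3 libraries in each arm was above 0. The gene passed the filter of 1 TPM in 3 libraries only through the MI vehicle hearts, so this call is not independent of that filter. The adjusted p was above 0.05 after median-ratio rescaling (0.0606), without the filter (0.0737) and with a pseudocount of 0.1 (0.0599), and in 9 of the 12 fits that left out 1 library.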

How the results depend on the processing

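Counts of members called depended on the processing and on single libraries. Between MI and sham under vehicle, against 1 called, 2 were called without the filter on low values (4.52% of all genes). With only the 2 groups fitted 0 were (0.0152% of all genes). Between MI and sham under prednisone the main count was 0. It was 1 after median-ratio rescaling, with a pseudocount of 0.1 or with mitochondrial and globin rows removed (25.4%, 18.0% and 24.8% of all genes). It was 5 with only the 2 groups fitted (24.9% of all genes). Between prednisone and vehicle in MI, against 9, 1 was called with only the 2 groups fitted (6.18% of all genes). The interaction call was lost after median-ratio rescaling and with a pseudocount of 0.1 (0 called in each, against 8.73% and 22.6% of all genes). Median-ratio rescaling shifted all genes by -0.46 between MI and sham under vehicle and by 0.46 between prednisone and vehicle in MI. After it, 3.26% of all genes were called higher and 3.26% lower between MI and sham under vehicle (15.1% and 0.904% in the main fit). Between prednisone and vehicle in MI, 14.4% were higher and 13.8% lower (2.50% and 34.9% in the main fit). The members called were then 1 in the first comparison and 6, all lower, in the second.

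Leaving out each replicate in turn gave 0 to 54 called between MI and sham under vehicle, 2 to 86 between prednisone and vehicle in MI, and 0 to 25 for the interaction. MI vehicle 2 gave the highest count in each case, 39.4%, 62.8% and 18.2% of members against 12.1%, 36.5% and 19.4% of all genes in the same fits. With MI vehicle 3 and sham vehicle 2 both left out, a choice made after seeing the data, the counts were 2, 4 and 3. Between prednisone and vehicle in MI, the change of Igkc became 0.36 and that of Mzb1 0.45 without MI vehicle 3, also with both left out; over the libraries left out in turn they ran from -2.87 to 0.36 and from -1.44 to 0.45. The summed level differed by 0.74 to 4.43 (MI and sham, vehicle), 1.00 to 2.34 (MI and sham, prednisone), -3.51 to -0.34 (prednisone and vehicle, MI) and -2.52 to 0.51 (prednisone and vehicle, sham) when 1 library was left out.

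The replicate numbers did not pair the samples: same-numbered libraries had mean correlations of deviations between -0.37 and 0.0028, so the replicate block only shared a number. With the replicate block 1 member was called between MI and sham under vehicle (8.03% of all genes) and 0 under prednisone (14.4% of all genes). Between prednisone and vehicle 6 were called in MI (33.7% of all genes) and 0 in sham hearts (0.0532%). For the interaction 1 was called (17.9% of all genes).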
